A study of Mus musculus with 4 samples.

Results

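The response of the Rab44-KO lung to ovalbumin (OVA) is described here across 19073 genes. Of the 41079 genes in the deposited table, these are the ones that reached 10 counts in the normal library, the OVA-induced library or both. The count minimum is arbitrary at its edge, where 229 genes had exactly 10 counts in the higher library and were kept and 315 had 9 and were not. Lung RNA was sequenced as 4 libraries, 1 per group, so the Rab44-KO response rests on 2 libraries and the WT response, given beside it, on the other 2. Rab44-KO mice carried a Rab44 gene edited with CRISPR/Cas9 on a C57BL/6 background, and the methods give the animals as female littermates aged 8 to 14 weeks. The knockout is not described as limited to a cell type. Mice of the OVA-induced Rab44-KO and WT groups were sensitized with OVA in alum (100 μg) into the peritoneum on days 0, 7 and 14, were given 100 μg OVA in 50 μL through the nose for 4 days, and were sampled on day 21. The normal Rab44-KO and WT mice are labelled as untreated, whereas the protocol attached to the same labels also names an intranasal PBS challenge. The number of mice behind a library is not given in the sources used here.

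In the OVA model, sensitization with alum is known to raise OVA-specific T and B cells, and the airway challenge then calls eosinophils, T cells and macrophages into the lung. Type 2 cytokines drive goblet cells to make mucus and macrophages to take up the alternatively activated state, and B cells switch class and become plasma cells. Neutrophils, platelets and the acute-phase proteins belong to the innate side of the same reaction. Rab44 is a large Rab GTPase with EF-hand domains, known from granule and lysosome traffic in immune cells.

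The libraries held between 18112901 and 19910236 counts, and their normalization factors lay between 0.973 and 1.02. The targeted gene, Rab44 (chromosome 17 of GRCm38, 29114145 to 29148980), had 251 counts in the WT and 1 in the Rab44-KO lung under normal conditions, and 810 and 0 in the same order under OVA-induced conditions. Both Rab44-KO libraries are under the floor of 3 counts that a count of 0 allows, so no fold is given between them. The Y-linked gene Ddx3y had between 1536 and 2216 counts in every library and Xist between 40 and 538, which does not match mice that are all female. Lung markers were abundant in every library, for example Sftpc, the surfactant protein of alveolar type 2 cells, with at least 181126 counts. Between the Rab44-KO libraries the log2 fold change also followed gene length. Its median was -0.25 in the shortest of 10 length classes and 0.14 in the longest, whereas in WT it was 0.25 and -0.26. The gene lists below, other than the Iglv genes, and the genes named by rule, other than Rab44, were also computed with the trend removed.

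More genes were higher than lower in the Rab44-KO lung under OVA-induced conditions. The log2 fold change (log2FC) of OVA-induced over normal CPM, the counts scaled to library size, was above 1, which is over 2-fold, for 1218 of 19073 genes (6.39%) and below -1 for 730 (3.83%). With TPM, the length-scaled abundances also deposited, every log2FC moves up by about 0.12 at the median, 481 genes were over 2-fold lower, and the share of higher genes among those over 2-fold went from 62.5% to 72.8%. Among 13484 genes with at least 100 counts, 324 were more than 2-fold higher (2.40%) and 181 lower by as much (1.34%). The counting interval of the ratio, described next, lay wholly above 2-fold for 365 of the 19073 genes (1.91%) and wholly below for 147 (0.771%). The median of all genes was -0.01, and 9361 of the 19073 had a log2FC above 0. These shares over all genes are the background for the counts of list members given below. A member with under 10 counts in either library passed the minimum only through the other, so its direction was set by that minimum. A range beside a log2FC is the exact 95% interval (Clopper-Pearson) of the ratio of counts. Such ranges cover counting error only, and with 1 library per condition they compare the libraries, not the conditions, so no p-value is given. A range beside the median of a list is a 95% order-statistic interval over its genes, which are not independent. It covers neither counting error nor the spread between animals. In whole lung RNA, fewer cells of a type and less RNA per cell cannot be told apart.

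**Figure D1:**
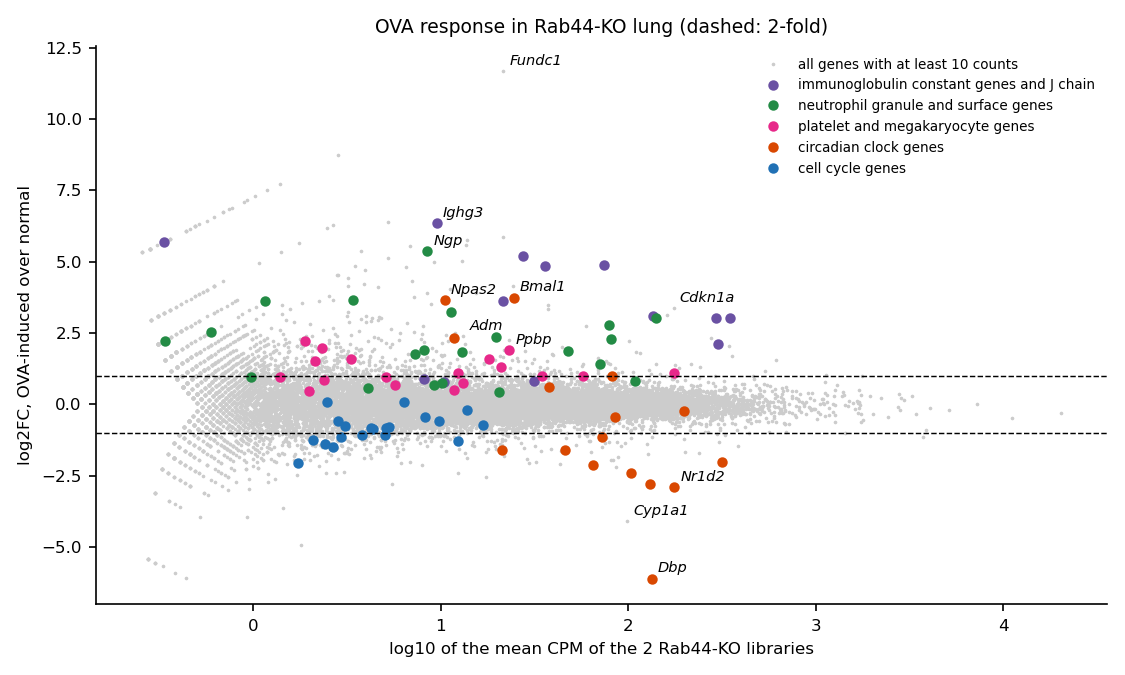
Log2FC of OVA-induced over normal Rab44-KO lung (vertical axis) against the log10 of the mean CPM of both libraries (horizontal axis), 1 point per gene with at least 10 counts, colored by list, with dashed lines at 2-fold. The cloud sits around a median of -0.01, Dbp and Cyp1a1 lie far below it at -6.11 and -4.10, and Ighg3 and Ngp far above it at 6.35 and 5.39.

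Ranked by log2FC among genes with at least 100 counts, the 10 largest increases were Fundc1, Ngp and 8 immunoglobulin genes, and the 10 largest decreases began with Dbp and Cyp1a1. The 8 immunoglobulin genes had at most 13 counts without OVA and reached 100 only through the OVA-induced library, so their number rests largely on that minimum. Among them, Ighg3 was 86.1-fold higher, and Igkv3-7, which had 0 counts without and 110 with OVA in the Rab44-KO lung, at least 34.3-fold against the floor of 3 counts, and the rank of such a gene depends on the prior count. Ngp encodes a granule protein of immature neutrophils, and Fundc1 a mitochondrial receptor for mitophagy. Fundc1 was listed at 0 counts in both normal libraries and had 892 counts in the WT and 844 in the Rab44-KO lung after OVA, which in Rab44-KO is at least 263-fold higher against the same floor. No other gene had 0 counts in both normal libraries and at least 100 in both OVA-induced ones. Whether this pattern reflects expression or the assignment of reads to the gene was not tested. Of the 10 largest decreases, 5 were the clock genes Dbp, Nr1d2, Nr1d1, Per3 and Hlf. The rest were Cyp1a1, Marco, the atrial peptide gene Nppa, Gsg1l and Rps27rt, and of these Rps27rt shares 87.1% and Nppa 33.0% of its 150-base windows with another gene, so their counts are uncertain. By CPM, which grows with transcript length and abundance, the largest gains were those of Txnip, C3, Sftpa1, Epas1 and Chil3, and the largest losses those of the club cell secretoglobin Scgb1a1, Sftpc, Gm26917, Cbr2 and AY036118.

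The 4 genes given as markers of this response, S100a8, Jchain, Ppbp and Adm, were all higher in the OVA-induced Rab44-KO library. S100a8 (chromosome 3, 90668978 to 90670035) encodes a calcium-binding protein stored in neutrophils. It had 336 counts in the WT and 367 in the Rab44-KO lung under normal conditions, and 2012 and 2693 in the same order under OVA-induced conditions. Both OVA-induced libraries were far above both normal ones, and the log2FC was 2.78 (2.62 to 2.94) in Rab44-KO and 2.57 in WT. Jchain (chromosome 5, 88519809 to 88527891) encodes the peptide that joins IgM and IgA into polymers. It had 266, 521, 15799 and 4761 counts in the same order. It was again high in both OVA-induced libraries, with a log2FC of 3.10 (2.97 to 3.23) in Rab44-KO and 5.88 in WT. Ppbp (chromosome 5, 90768518 to 90770063) encodes a chemokine of platelet granules. It had 423, 180, 252 and 713 counts. Its log2FC was 1.89 (1.65 to 2.13) in Rab44-KO and -0.76 in WT, so the libraries with most counts were normal WT and OVA-induced Rab44-KO. Adm (chromosome 7, 110627661 to 110629820) encodes the vasodilator peptide adrenomedullin. It had 76, 77, 161 and 433 counts, a log2FC of 2.39 (2.04 to 2.77) in Rab44-KO and 1.07 in WT. None of the 150-base windows of these 4 genes occurs in another gene.

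**Figure D2:**
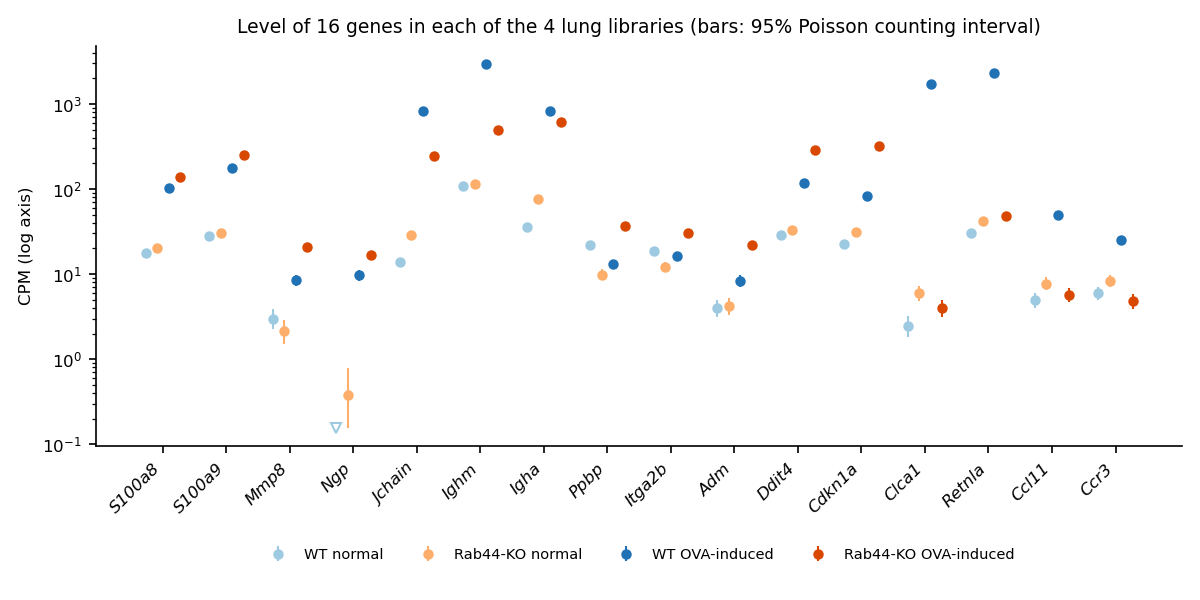
CPM (vertical axis, log scale) of 16 genes in the 4 libraries, 1 point per library and gene, where bars are exact 95% Poisson intervals and open triangles mark a count of 0 at the floor of 3 counts. S100a8, Adm, Jchain and Ppbp lie higher in the Rab44-KO library after OVA than before, at log2FC of 2.78, 2.39, 3.10 and 1.89, whereas in WT lungs Ppbp is lower (-0.76).

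Neutrophil genes were higher throughout the Rab44-KO lung under OVA-induced conditions. Of 22 granule and surface genes of neutrophils, 21 had at least 10 counts. All 21 of these had a log2FC above 0, beside 9361 of 19073 over all genes. Some members, among them Ngp, Camp, Mpo and Il1r2, reached 10 counts only through the OVA-induced library, so their direction was set by that minimum. Over 2-fold, 15 of the 21 were higher and 0 lower by as much, beside 6.39% and 3.83% of all genes. The median of the 21 was 1.92 (order-statistic interval 0.95 to 2.78), and it stayed between 1.87 and 2.08 in 10 alternative settings. Among the granule proteins, S100a9, the partner of S100a8, had 558 counts without and 4872 with OVA in the Rab44-KO lung (log2FC 3.03, 2.90 to 3.16). Mmp8, the neutrophil collagenase, had 39 and 400 (3.26), and Mmp9, the gelatinase, 374 and 1470 (1.88). The specific granule genes Ngp and Camp had 7 and 323 and 3 and 42 counts. Counts of the azurophil granule genes, which are made earlier, were low, with 2 and 11 for Mpo and 0 and 2 for Elane. Among the receptors, Csf3r, which binds the growth factor G-CSF, had 500 and 2640 counts (2.30), Cxcr2 had 117 and 642 (2.36) and the decoy receptor Il1r2 had 9 and 123 (3.64). Lcn2, an iron-scavenging protein also made by epithelium, moved less, with 1443 and 2710 counts (0.81).

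The cytokines that attract or sustain neutrophils did not move together. Of 14 listed, 9 had at least 10 counts, with 3 over 2-fold higher, 2 over 2-fold lower and a median of 0.49. Cxcl5 (12 and 68 counts), Cxcl2 (6 and 52) and Ppbp were higher. The chemokine Cxcl1 had 53 and 28 counts and the growth factor Csf2 28 and 6, a log2FC of -1.01 and -2.27. Il17a had 0 counts without and 4 with OVA in the Rab44-KO lung.

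Immunoglobulin genes took a larger share of the counts in the OVA-induced than in the normal Rab44-KO lung. Of all counts, immunoglobulin genes and Jchain took 0.0442% in normal and 0.305% in OVA-induced Rab44-KO lungs, against 0.0376% and 1.08% in WT. All 13 constant genes with Jchain had at least 10 counts, and their median log2FC was 3.10, or 3.04 with Ighe at its bound. Over 2-fold, 10 were higher and 0 lower, beside 6.39% and 3.83% of all genes. Ighg3 and Ighe reached 10 counts only through the OVA-induced library, so their direction was set by that minimum. The switched IgG classes led. Ighg1 had 26 counts without and 1043 with OVA in the Rab44-KO lung (5.22, 4.67 to 5.85), Ighg2b 88 and 2808 (4.90), Ighg2c 44 and 1365 (4.85) and Ighg3 4 and 368 (6.35). IgM and IgA transcripts started from higher counts, with 2070 and 9570 for Ighm (2.11) and 1396 and 12100 for Igha (3.02). Ighe, the heavy chain of IgE, had 0 and 13 counts, at least 4.06-fold higher, and 4 and 96 in WT. The light chain Igkc had 1159 and 10178 counts (3.04), and Iglc1 59 and 773 (3.61). Ighd, the mark of unswitched B cells, had 416 and 789, a log2FC of 0.83.

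The variable genes, which reads can share with close copies, are given by their summed counts. The normal Rab44-KO library held few reads of them, so most members reached 10 counts only through the OVA-induced library, and a count or median over those members would be set largely by that minimum. Over all 183 Ighv genes the sum was 559 counts without and 5561 with OVA in the Rab44-KO lung, and 426 and 15432 in WT. Over all 162 Igkv genes it was 968 and 7403, and 882 and 29708 in WT. Of these genes, 117 Ighv and 96 Igkv members stayed under 10 counts in both Rab44-KO libraries. The 3 Iglv genes summed to 94 counts without and 907 with OVA in the Rab44-KO lung, and to 129 and 1617 in WT. Igkv17-127 had 13 counts in normal and 822 in OVA-induced Rab44-KO lungs (5.86, 5.11 to 6.80), next to 22 and 1168 in WT.

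The genes of the secretory machinery of plasma cells moved less than the antibodies. Of 16 listed, 15 had at least 10 counts, with 3 over 2-fold higher, 1 lower and a median of 0.20. Pou2af1, a B cell coactivator, had 218 and 862 counts (1.89), Derl3 32 and 82 (1.26) and Mzb1 74 and 185 (1.22), although 46.7% of the windows of Mzb1 occur elsewhere. Fkbp11, a secretory prolyl isomerase, went the other way with 135 and 54 counts (-1.41). The defining genes Xbp1 (0.20), Irf4 (0.49), Prdm1 (-0.29) and Sdc1 (-0.19) stayed within 2-fold. All 12 B cell genes had a log2FC above 0 and 1 was over 2-fold higher, with a median of 0.69 (0.33 to 0.94). The antigen receptor chain Cd79a had 521 and 1158 counts (1.06), and Pax5, the factor that holds B cell identity, 345 and 696 (0.92).

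Platelet genes were higher in the Rab44-KO lung under OVA-induced conditions. All 18 platelet and megakaryocyte genes had a log2FC above 0, beside 9361 of 19073 over all genes, with a median of 1.04 (0.85 to 1.59). Over 2-fold, 9 were higher and 0 lower by as much, beside 6.39% and 3.83% of all genes. In WT the median of the same genes was -0.32. Besides Ppbp, Tubb1, the platelet tubulin, had 164 counts without and 528 with OVA in the Rab44-KO lung (1.59, 1.34 to 1.85), and 371 and 191 in WT. Itga2b, the fibrinogen receptor chain, had 220 and 585 (1.31), and 358 and 317 in WT. In both, the normal Rab44-KO library was the lowest of the 4. The von Willebrand factor receptor chains Gp1bb and Gp5 had 12 and 61 (2.23) and 30 and 97 counts (1.59), whereas Pf4 moved least among the granule proteins with 178 and 272 (0.52). The red cell list did not follow. Of 8 red cell genes, 3 were over 2-fold higher, 1 was lower, and the median of -0.10 was 0.03 with TPM and 0.05 with the length trend removed. Hemoglobin genes took 0.175% of counts without and 0.138% with OVA in the Rab44-KO lung. Slc4a1, the red cell anion exchanger, had 28 and 114 counts (1.92).

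Mucus genes did not move in 1 direction in the Rab44-KO lung. Of 13 mucus genes 9 had at least 10 counts, with 1 over 2-fold higher and 1 lower by as much, and their median log2FC was -0.58 (-0.98 to 0.71). Clca1 (chromosome 3, 145003817 to 145032776), a secreted protease of goblet cells, had 108 counts in normal and 77 in OVA-induced Rab44-KO lungs (-0.58, -1.02 to -0.15), and 47 and 33407 in WT. The gel-forming mucins Muc5ac (27 and 41 counts) and Muc5b (1082 and 962) had log2FC of 0.50 and -0.26. Agr2 and Spdef, which fold mucin and set goblet fate, had 39 and 21 and 36 and 20 counts. Tff2, a trefoil peptide of mucus, had 118 and 37 (-1.76, -2.34 to -1.22). The 1 member over 2-fold higher was Slc26a4, the anion exchanger pendrin, with 53 and 260 counts (2.19, 1.77 to 2.65).

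Macrophage genes split by gene. Of 12 genes of alternatively activated macrophages 11 had at least 10 counts, with 3 over 2-fold higher, 0 lower and a median of 0.41. Of the 3, Chil4 passed the minimum only through the OVA-induced library. Among the 7 members with at least 100 counts, 1 was over 2-fold higher and 0 lower, with a median of 0.20. Chil3, the chitinase-like protein Ym1, had 5639 and 17869 counts (1.57, 1.53 to 1.61), and its relative Chil4 1 and 19 (3.86, 1.50 to 9.53). Retnla, a resistin-like protein induced by type 2 cytokines, had 771 and 944 (0.20). In WT the counts of Retnla were 578 and 44659. Of 13 alveolar macrophage genes 1 was higher and 1 lower, with a median of 0.32. The lower one was Marco (chromosome 1, 120474538 to 120505024), the scavenger receptor for particles, with 379 counts in normal and 76 in OVA-induced Rab44-KO lungs (-2.41, -2.79 to -2.05). In WT, Marco had 145 and 912. Fabp4, a lipid chaperone of these cells, was also lower, with 533 and 292 counts (-0.96).

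Eosinophil genes, CC chemokines and type 2 cytokines lay within 2-fold in the Rab44-KO lung for 7 of 8, 13 of 16 and 10 of 12 measured members, beside 17125 of 19073 over all genes. Of 12 eosinophil genes 8 had at least 10 counts, 1 was over 2-fold higher, 0 lower, and the median was 0.35. Prg2, the major basic protein, was the higher one, with 9 and 48 counts (2.29, 1.28 to 3.53), and it passed the minimum only through the OVA-induced library. Ccr3, the eotaxin receptor, had 153 and 94 (-0.80, -1.18 to -0.42), Siglecf 222 and 175 (-0.44), and Epx 0 and 0. Of 17 CC chemokine genes 16 had at least 10 counts, with 2 over 2-fold higher, 1 lower and a median of -0.13, which was 0.02 with the gene length trend removed. The eotaxins Ccl11 (141 and 110 counts) and Ccl24 (17 and 16) and the monocyte and eosinophil attractant Ccl8 (43 and 44) had log2FC between -0.45 and -0.06. The member over 2-fold higher with the most counts was Ccl9, a myeloid chemokine, with 230 and 754 (1.62, 1.40 to 1.84). Of 17 type 2 cytokines, alarmins and receptors 12 had at least 10 counts, with 0 over 2-fold higher, 2 lower and a median of 0.19. Il13 had 0 counts in both Rab44-KO libraries. The 2 lower members were Il5, with 19 and 7 counts, and the epithelial alarmin Tslp, with 124 and 56 (-1.24), while Il4ra, the receptor chain shared by IL-4 and IL-13, had 1974 and 3532 (0.74). Of 14 mast cell and basophil genes 7 had at least 10 counts, with 3 over 2-fold higher and 2 lower. Hdc, which makes histamine, had 808 and 1847 counts (1.10), and the mast cell proteases Mcpt4 and Cma1 25 and 8 and 23 and 4.

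Phagocyte genes were moderately higher, and lymphocyte genes other than those of B cells stayed near their normal counts. Of 16 monocyte and phagocyte genes 15 had a log2FC above 0, 3 were over 2-fold higher and 0 lower, with a median of 0.70 (0.25 to 0.93). The 3 were the Fc receptors Fcgr4 (117 and 308 counts) and Fcgr1 (70 and 172) and the integrin Itgam, which shares 62.7% of its windows with another gene. The oxidase subunit Ncf4 had 163 and 332 counts (0.93). Of 14 complement genes 2 were over 2-fold higher and 1 lower, with a median of 0.23. They were C3, the central component, with 13596 and 29760 counts (1.03), the anaphylatoxin receptor C5ar1 with 221 and 700 (1.57), and the adipocyte-derived factor Cfd with 867 and 223 (-2.05). Of 19 acute-phase genes 16 had at least 10 counts, with 4 over 2-fold higher, 0 lower and a median of 0.49. Saa3 had 28 and 150 counts (2.32) and the protease inhibitor Serpina3n 1572 and 3496 (1.06). Of 14 genes of the interleukin-1 family 10 had at least 10 counts, 1 was over 2-fold higher, the decoy Il1r2, and the median was 0.44. Il1b had 191 and 386 (0.92), and the alarmin Il33 1441 and 2198 (0.51).

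Of 16 T cell genes 1 was over 2-fold higher, the checkpoint receptor Ctla4 with 23 and 93 counts (1.91, 1.25 to 2.65), and the median was 0.25. The receptor chain Cd3e had 107 and 144 counts (0.33). Of 13 natural killer and cytotoxic genes 11 had at least 10 counts and none was over 2-fold apart, with a median of -0.24. The granzyme Gzma had 496 and 329 counts (-0.69). None of 10 genes of MHC class II antigen presentation was over 2-fold apart, and their median of -0.08 was 0.04 with TPM. Cd74, the chaperone of class II, had 18261 and 15341 counts (-0.35), and 18251 and 44815 in WT. Of 18 interferon-stimulated genes 2 were over 2-fold higher and 3 lower, with a median of -0.25, which was 0.04 over members with at least 50 counts. The 2',5'-oligoadenylate synthetases Oas3 (39 and 241 counts, 2.52) and Oas2 (106 and 247, 1.12) were higher, and Gbp3 (854 and 426) and Ifit3 (1359 and 681) were lower, Ifit3 with 18.5% of its windows shared, though with TPM both came within 2-fold (-0.97 and -0.96).

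Proliferation genes were lower in the OVA-induced Rab44-KO library. Of 20 cell cycle genes 18 had a log2FC below 0, beside 9712 of 19073 over all genes. Over 2-fold, 8 were lower and 0 higher by as much, beside 3.83% and 6.39% of all genes. The median of the 20 was -0.82 (-1.13 to -0.59). It stayed between -0.85 and -0.68 in the alternative settings. Top2a (chromosome 11, 98992943 to 99024189), the topoisomerase of dividing cells, had 276 counts in the WT and 318 in the Rab44-KO lung under normal conditions, and 667 and 141 in the same order under OVA-induced conditions. The OVA-induced Rab44-KO library was the lowest of the 4 and the OVA-induced WT library the highest. The log2FC was -1.27 (-1.57 to -0.98) in Rab44-KO and 1.26 in WT. Among the other mitotic genes, cyclin B1 (Ccnb1) had 51 and 13 counts (-2.05) in the Rab44-KO libraries, Ube2c 72 and 27 (-1.50), Birc5 64 and 26 (-1.39), Cdk1 74 and 36 (-1.13) and Mki67 384 and 250 (-0.71). Rrm2, which supplies deoxynucleotides, had 125 and 63 (-1.08). Cdkn1a (chromosome 17, 29090976 to 29100727), the p21 inhibitor of cyclin-dependent kinases, went up, with 437 counts in the WT and 564 in the Rab44-KO lung under normal conditions, and 1609 and 6217 in the same order under OVA-induced conditions. Its log2FC of 3.37 (3.24 to 3.49) in Rab44-KO stood beside 1.87 in WT.

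Clock genes were split by phase in the Rab44-KO lung, with output genes lower and Bmal1 and its phase higher under OVA-induced conditions. In the mammalian clock, BMAL1 pairs with CLOCK or NPAS2 on E-box sequences and drives the Per and Cry genes, the REV-ERB repressors Nr1d1 and Nr1d2, and the output factors Dbp, Tef and Hlf. The REV-ERB proteins repress Bmal1 and Npas2 through ROR elements, and Dbp, Tef and Hlf compete with the repressor Nfil3 on D-boxes, so output genes and Bmal1 peak at opposite times of day. All 16 clock genes had at least 10 counts, with 9 over 2-fold lower, 3 over 2-fold higher and a median log2FC of -1.37. Over all genes, 3.83% were over 2-fold lower and 6.39% higher. Dbp (chromosome 7, 45705088 to 45710203) had 4881 counts in the WT and 4802 in the Rab44-KO lung under normal conditions, and 1278 and 74 in the same order under OVA-induced conditions. The 2 normal libraries were alike and both OVA-induced ones were lower, the Rab44-KO one most. The log2FC was -6.11 (-6.47 to -5.78) in Rab44-KO and -1.95 in WT, with 12.5% of the windows of Dbp shared with Sphk2.

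Most other output and repressor genes were also lower, to different degrees. Nr1d1 had 4723 counts in the WT and 4161 in the Rab44-KO lung under normal conditions and 2235 and 648 under OVA-induced ones, a log2FC of -2.78 (-2.90 to -2.66) in Rab44-KO. Nr1d2 had 5563, 5671, 2510 and 807 (-2.91), and Per3 2750, 3168, 1066 and 633 (-2.42). In these 3 the OVA-induced Rab44-KO library was the lowest. Tef had 9220, 9290, 3762 and 2475 counts, 4.01-fold lower in the OVA-induced of the Rab44-KO libraries. Hlf (-2.14), Ciart (-1.61), Bhlhe41 (-1.61) and Per2 (-1.13) were lower too, and Per2 was lower still in WT (-1.53), while Cry2 (-0.45) and Per1 (-0.22) stayed within 2-fold. Cry1 went the other way, also within 2-fold (0.59). The genes of the opposite phase were higher. Bmal1 had 59, 62, 312 and 891 counts in the same order (3.74, 3.38 to 4.15), Npas2 23, 28, 122 and 380 (3.66), and Nfil3 56, 72, 265 and 383 (2.31). Here the OVA-induced Rab44-KO library was the highest. Clock itself had 1011 and 2139 in the Rab44-KO libraries (0.99).

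Promoter sequence is shown for 4 of the lower clock genes, because the clock factors bind short sites whose letters can be looked for upstream of each start. All 4 were chosen from members that hold a match, and the window of Dbp, Nr1d1 and Hlf, which were also lower, held none of the 3 motifs. In RefSeq for GRCm38.p6, 15 of the 16 genes had a promoter, and the 250 bases before each start were searched on both strands for the E-box CACGTG, the ROR core AGGTCA and the D-box core TTANNTAA, which do not overlap in the sequences shown. An E-box was found in 5 of 15 clock genes, in 8.83% of 14287 genes with at least 10 counts and in 6.86% of all 27025 genes with a promoter. A ROR core was found in 4 of 15, 14.0% and 15.8%, and a D-box core in 2 of 15, 4.42% and 6.30%. By direction, 3 of the 8 lower clock genes with a promoter and 0 of the 3 higher ones held an E-box, 1 of 8 and 1 of 3 a ROR core, and 2 of 8 and 0 of 3 a D-box core. Capitals mark the matches, each line reads 5′ to 3′ toward the start, and a match is a description of letters only. The Ciart promoter (chr3:95882229-95882478, minus strand) holds 3 E-boxes, which begin 116, 58 and 44 bases before the start. That of Tef at its second start (chr15:81811164-81811413, plus strand) holds 1 E-box, 138 bases before. That of Nr1d2 (chr14:18239107-18239356, minus strand) holds 1 ROR core, 77 bases before, and that of Per3 (chr4:151044666-151044915, minus strand) 2 D-box cores, 205 and 158 bases before.
Ciart: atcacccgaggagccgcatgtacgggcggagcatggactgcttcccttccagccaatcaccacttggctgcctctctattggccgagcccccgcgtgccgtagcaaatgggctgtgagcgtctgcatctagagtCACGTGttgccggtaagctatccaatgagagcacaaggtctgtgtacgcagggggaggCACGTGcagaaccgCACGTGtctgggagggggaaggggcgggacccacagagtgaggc
Tef: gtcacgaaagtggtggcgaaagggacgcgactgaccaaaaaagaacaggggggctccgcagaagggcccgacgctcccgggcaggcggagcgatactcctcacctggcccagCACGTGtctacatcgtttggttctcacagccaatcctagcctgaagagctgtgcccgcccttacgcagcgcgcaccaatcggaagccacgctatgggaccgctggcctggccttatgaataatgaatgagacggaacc
Nr1d2: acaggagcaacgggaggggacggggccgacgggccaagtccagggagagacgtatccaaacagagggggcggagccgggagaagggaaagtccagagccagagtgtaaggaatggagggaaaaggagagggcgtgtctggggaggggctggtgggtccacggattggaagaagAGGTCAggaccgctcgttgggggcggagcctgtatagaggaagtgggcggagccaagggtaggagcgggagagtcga
Per3: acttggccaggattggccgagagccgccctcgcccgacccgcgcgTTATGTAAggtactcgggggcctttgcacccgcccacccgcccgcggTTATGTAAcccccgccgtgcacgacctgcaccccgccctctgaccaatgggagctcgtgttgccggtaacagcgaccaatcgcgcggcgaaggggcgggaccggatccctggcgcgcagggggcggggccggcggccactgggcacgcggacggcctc

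**Figure D3:**
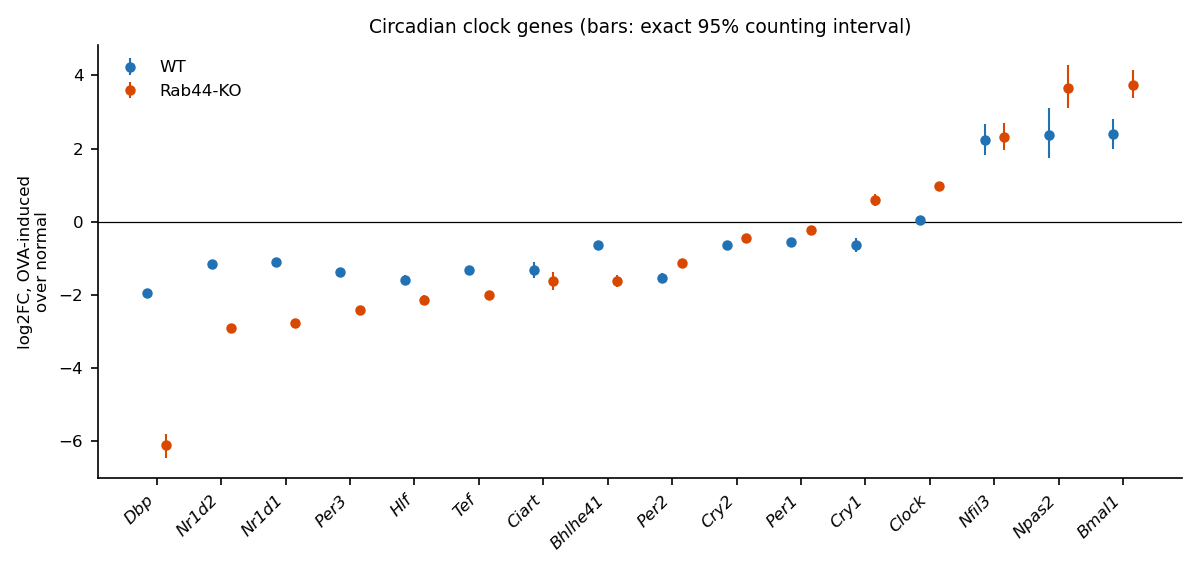
Log2FC of OVA-induced over normal lung for 16 clock genes (vertical axis) in Rab44-KO and WT, ordered by the Rab44-KO value, with bars for the exact 95% counting interval. Values in Rab44-KO run from -6.11 for Dbp to 3.74 for Bmal1, and those in WT from -1.95 for Dbp to 2.39 for Bmal1.

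Single genes of hormone and stress responses were well over 2-fold higher, while the medians of their lists lay between -0.12 and 0.33. Over all genes, 6.39% were over 2-fold higher. Of 14 adrenomedullin and hypoxia genes 2 were over 2-fold higher and 0 lower, with a median of 0.19. Besides Adm, the other was Ddit4, an inhibitor of mTORC1 induced by hypoxia and glucocorticoids, with 557 counts in the WT and 597 in the Rab44-KO lung under normal conditions and 2262 and 5621 under OVA-induced ones (3.14, 3.02 to 3.26). The receptor of adrenomedullin, Calcrl, had 22941 and 30471 counts in the Rab44-KO libraries (0.31), its partners Ramp2 and Ramp3 had log2FC of -0.22 and 0.59, and Vegfa of -0.07. Of 12 glucocorticoid-responsive genes 3 were over 2-fold higher and 1 lower, with a median of 0.33. Higher were Cdkn1a, Pdk4, which spares glucose by blocking pyruvate dehydrogenase, with 283 and 2028 counts (2.74), and the kinase Sgk1 with 1806 and 4988 (1.37). Lower was Zbtb16 with 2415 and 663 (-1.96), while the sensitive targets Fkbp5 and Tsc22d3 both had 0.33. Of 17 immediate-early genes 1 was higher and 2 lower, and the median of -0.12 was 0.01 with TPM. Klf4 had 2518 and 6730 counts (1.32) and Fos 3226 and 1802 (-0.94). Of 12 heat shock genes 1 was higher and 2 lower, with a median of 0.22. The lower pair, Hspa1a (567 and 227 counts) and Hspa1b (548 and 241), share 46.0% and 40.5% of their windows, mostly with each other, and Hsph1, a nucleotide exchange factor, had 800 and 2258 (1.40).

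Enzymes of xenobiotic and retinoid metabolism included several genes that differed between the normal libraries already. Cyp1a1 (chromosome 9, 57687928 to 57703824), the main oxidase induced by the aryl hydrocarbon receptor, had 67 counts in the WT and 3418 in the Rab44-KO lung under normal conditions, and 30 and 212 in the same order under OVA-induced conditions. The normal Rab44-KO library stood far above the other 3, and the log2FC was -4.10 (-4.31 to -3.91) in Rab44-KO. Of 7 targets of that receptor 6 had at least 10 counts, with 0 higher and 2 lower, and the median of -0.24 was 0.27 over members with at least 50 counts. Nqo1, a quinone reductase, had 523 and 203 counts (-1.46) in the Rab44-KO libraries, and 179 and 95 in WT. Cyp1b1, Aldh3a1 and Tiparp had log2FC between 0.27 and 0.43 in Rab44-KO. Cyp26b1, which breaks down retinoic acid, had 300, 1671, 758 and 9029 counts in the 4 libraries in the same order (2.34, 2.26 to 2.41). Of 12 retinoic acid genes 8 had at least 10 counts, with 2 over 2-fold higher, Cyp26b1 and the retinoic acid synthase Aldh1a2, 0 lower and a median of -0.13. Of 12 NRF2 and oxidative stress targets 11 had a log2FC below 0, 0 were higher and 2 lower over 2-fold, and the median was -0.36 (-0.66 to -0.19). The summed CPM of the 12 was 691 in normal WT and 969 in normal Rab44-KO lungs. Of 14 carboxylesterase and xenobiotic enzymes 1 was over 2-fold lower, Cyp2a5 with 2467 and 956 counts (-1.46), and the median was -0.38.

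Most genes of the lung structure lay within 2-fold, as did 17125 of 19073 genes with at least 10 counts. Most of these members had at least 100 counts, a minimum at which 324 of 13484 genes were over 2-fold higher and 181 lower. None of 12 alveolar type 2 genes was over 2-fold apart (median 0.09), with log2FC of -0.49 for Sftpc and 0.50 for the collectin Sftpd. Of 12 alveolar type 1 genes 1 was over 2-fold lower, Igfbp2 with 5103 and 2332 counts (-1.23), and the median was -0.40 (-0.63 to 0.03). The 12 club cell genes all had a log2FC below 0, with a median of -0.30 (-0.60 to -0.14). The one over 2-fold lower was Bpifa1, a secreted antimicrobial protein, with 5575 and 1892 counts (-1.65). The 14 ciliated cell genes (median 0.05) and the 12 smooth muscle genes (0.06) held none over 2-fold apart. Of 10 mesothelial genes 8 had at least 10 counts, with 2 over 2-fold higher and a median of 0.36, led by the membrane mucin Muc16 with 166 and 485 counts (1.45). Of 14 heart muscle genes 13 had at least 10 counts, with 1 lower, Nppa with 541 and 99, and the median of -0.07 was 0.06 with TPM.

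Of 16 capillary endothelial genes 12 had a log2FC below 0 and 1 was over 2-fold lower, with a median of -0.16. It was Apln, the peptide apelin of tip cells, with 1308 counts in the WT and 1274 in the Rab44-KO lung under normal conditions and 619 and 323 under OVA-induced ones (-2.07, -2.26 to -1.90), and its receptor Aplnr had 1758 and 992 in the Rab44-KO libraries (-0.92). Of 8 endothelial adhesion genes 6 had at least 10 counts and none was over 2-fold apart (median -0.28). Of 13 collagen and matrix genes 1 was over 2-fold higher, Eln, the elastin gene, with 2155, 2433, 7000 and 10854 counts in the 4 libraries in that order (log2FC 2.06), and the median was 0.27. Both OVA-induced libraries were above both normal ones. The matricellular gene Postn had 6235 and 3422 counts in the Rab44-KO libraries (-0.96). Of 13 matrix metalloproteinases and inhibitors 3 were over 2-fold higher and 0 lower, with a median of 0.48, and they were Mmp8, Mmp9 and the aggrecanase Adamts4 (16 and 92 counts, 2.41). The macrophage elastase Mmp12 had 100 and 126 counts, and 101 and 2153 in WT. Of 13 housekeeping genes none was over 2-fold apart, and their median of -0.04 was 0.08 with TPM and 0.06 with the length trend removed. Ppia was lowest among them (-0.91) and Gapdh had only 34 and 49 counts.

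**Figure D4:**
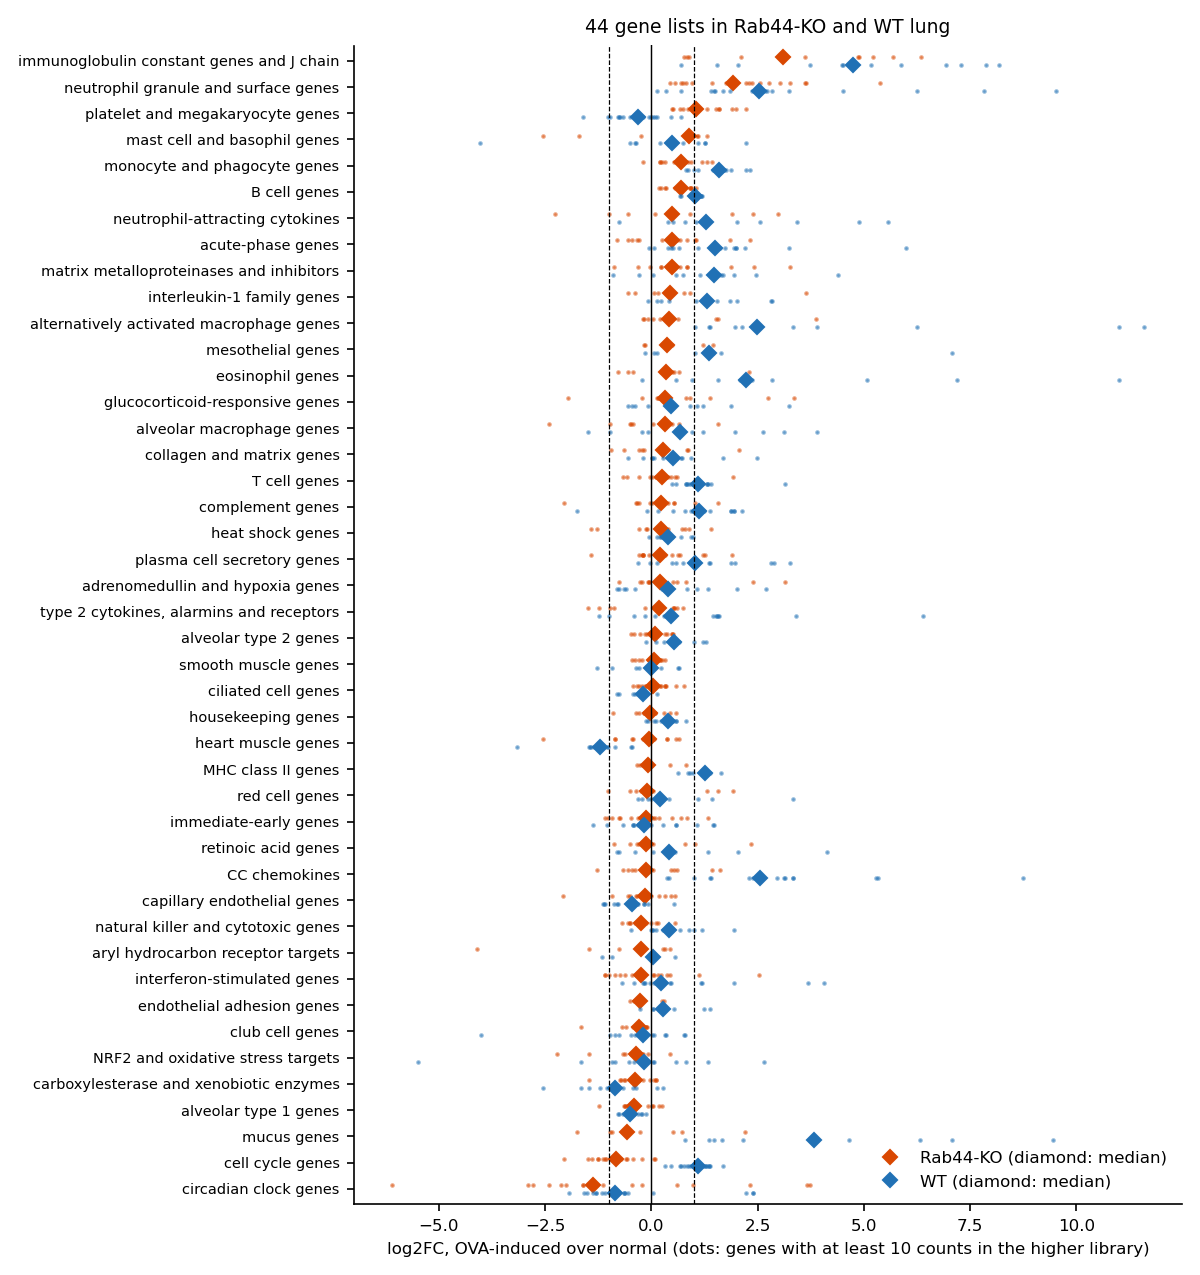
Log2FC of OVA-induced over normal lung (horizontal axis) for the members with at least 10 counts of 44 gene lists (rows), as dots per gene and diamonds for the median, Rab44-KO in orange and WT in blue. In Rab44-KO the medians of the immunoglobulin constant (3.10), neutrophil (1.92) and platelet (1.04) lists lie above 2-fold and those of the clock (-1.37) and cell cycle (-0.82) lists are the lowest.

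The responses of both genotypes were then set side by side over genes measured well in each. In WT, 1709 of 19023 genes were over 2-fold higher (8.98%) and 968 lower (5.09%). Among 13160 genes that reached 100 counts in 1 or both libraries of each genotype, 276 were over 2-fold higher in Rab44-KO and 587 in WT, and 178 were higher in both, which is 64.5% of the Rab44-KO and 30.3% of the WT genes. Of 170 lower genes in Rab44-KO and 209 in WT, 48 were shared, 28.2% and 23.0%. Across these genes, which are not independent replicates, Pearson's r of the log2FC was 0.53 and Spearman's rho 0.17. The gene length trend, opposite in sign in both genotypes, lies within this comparison. With 1 library per condition the difference between genotypes has no replicate check and was not tested.

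A total of 8 genes crossed 2-fold in opposite directions. Gm53455 was over 2-fold higher in Rab44-KO and lower in WT, and Fabp5, Gm12191, Marco, Rrm2, Tff2, Tgtp1 and Top2a were lower in Rab44-KO and higher in WT. With TPM the log2FC of Rrm2 in Rab44-KO was -0.94, within 2-fold, and Fabp5, Gm12191 and Tgtp1 were not recomputed in other settings. Over the 13138 of these genes with at least 10 counts in all 4 libraries, the counting interval of the difference lay wholly above 1 for 121 (0.921%) and wholly below -1 for 186 (1.42%). With the same minimum of 100 counts, the largest differences below 0 were those of Clca1 (-10.0), Retnla (-6.06), Marco (-5.05), Mmp12 (-4.16) and Dbp (-4.16, -4.51 to -3.82). The first 4 were higher in WT by a log2FC of 9.45, 6.26, 2.64 and 4.40, and in Rab44-KO they had -0.58, 0.20, -2.41 and 0.24. The largest above 0 were those of Ppbp (2.65, 2.32 to 2.97), Cyp4a32, Tubb1, Gm53455 and the calcium-binding protein gene Hrc (2.46).

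By list, all 18 platelet genes had a higher and all 20 cell cycle genes a lower log2FC in Rab44-KO than in WT. Over all 18352 genes measured in both genotypes, 8721 were higher and 9631 lower in Rab44-KO. The genes of a list are read from the same 4 libraries and are not independent. Medians in Rab44-KO and WT were 1.92 and 2.54 for neutrophil genes, 3.10 and 4.75 for immunoglobulin constant genes with Jchain, and -1.37 and -0.87 for clock genes. Gene by gene the gap was smaller for 2 of these lists, with a median difference of -0.19 over the neutrophil genes measured in both genotypes, 11 lower and 9 higher in Rab44-KO, and of -0.11 over the clock genes, 8 lower and 8 higher. They were -0.58 and 3.83 for mucus genes, or 3.49 in WT with the gene that had a count of 0 set to its bound, and -0.13 and 2.56 for CC chemokines, or 2.51 in WT at the bound. The members measured differed in number, with 21 in Rab44-KO and 20 in WT for neutrophil genes, 9 and 11 for mucus genes and 16 and 17 for CC chemokines. For cell cycle genes they were -0.82 and 1.10, and for genes of MHC class II -0.08 and 1.26. The medians of the neutrophil, immunoglobulin and clock lists had the same sign in both genotypes, while those of the cell cycle, platelet, mucus, CC chemokine and MHC class II lists had opposite signs, the last pair changing sign in Rab44-KO as given above.

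**Figure D5:**
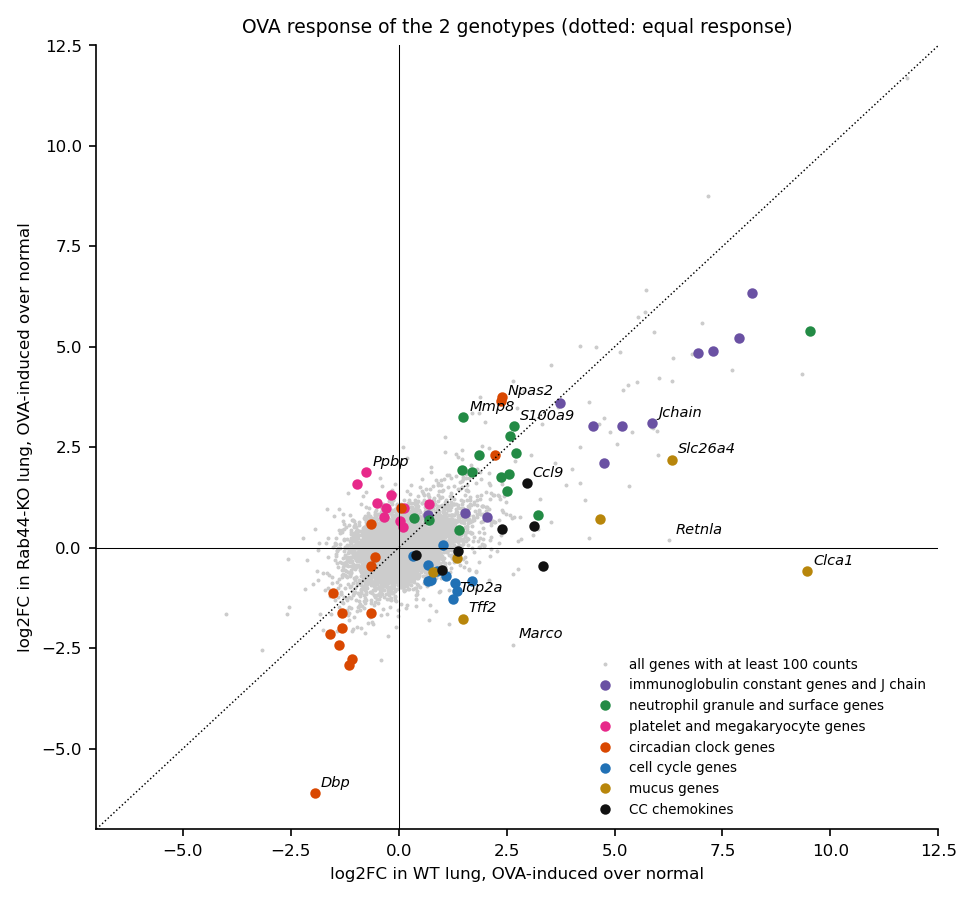
Log2FC of OVA-induced over normal lung in Rab44-KO (vertical axis) against WT (horizontal axis), 1 point per gene that reached 100 counts in each genotype, colored by list, where the dotted line marks equal responses. Clca1 lies far right of the line at 9.45 in WT and -0.58 in Rab44-KO, Ppbp above it at -0.76 and 1.89, and Dbp below it at -1.95 and -6.11.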

How the data were processed

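RNA of whole lung was measured in 4 libraries, 1 per group, which were assigned by their labels. Paired-end reads of 150 bp were trimmed by the authors, aligned with HISAT2 to the GRCm38 assembly, and summed per gene by featureCounts. Tool versions, the use of strand and the handling of multiply mapped reads are not given in the sources used here. The authors deposited raw counts, which are whole numbers, and TPM, which is the same counts scaled by 1 length per gene. DESeq2 is named for their differential expression, which was not used here.

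Counts were scaled with edgeR 4.0.16 by TMM over all libraries in R 4.3.3, and processed with Python 3.11.15, numpy 2.4.6, pandas 2.3.3, scipy 1.17.1 and matplotlib 3.10.9. The log2FC compares CPM on the log2 scale, adding 0.25 counts in proportion to library size, for genes that reached 10 counts in either library. Counting intervals of ratios are exact 95% Clopper-Pearson intervals, those of differences between genotypes are 95% Wald intervals on the log scale, and medians have 95% order-statistic intervals. A count of 0 was given a floor of 3 counts per library. With totals of 18112901 to 19910236 counts this floor is 0.154 to 0.164 CPM. Shared 150-base windows were counted in GENCODE M21 transcripts. Gene positions are from GENCODE M21 on GRCm38, since of 39405 genes matched to RefSeq for GRCm38.p6 only 2.12% had the start given in the deposited table. The steps were tested on simulated counts.

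The members and the 44 lists were chosen with earlier results of these data known. Named by rule are the 10 largest log2FC per direction with at least 100 counts, the 5 largest gains and losses in CPM, S100a8, Adm, Jchain, Ppbp and Rab44, in each list the 4 genes of largest absolute log2FC among those that reached 100 counts, and the 5 largest differences between genotypes per direction. Any other gene was named after its values were seen. Alternatives were DESeq2 1.42.0 size factors, scaling by total counts, TMM on only the 2 libraries compared, immunoglobulin genes left out of TMM, a prior count of 2, TPM plus a pseudocount of 0.1, thinning to the smallest library (seed 44), removal of the length trend over 500 genes, minimums of 1 and 50 counts, a limit of 2 on the absolute log2FC, and calls by the counting interval.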

Additional observations from a re-analysis of the deposited data

Results flagged for a closer look

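Some responses pointed in opposite directions in Rab44-KO and WT lungs, and none of these differences was tested, since each rests on 1 library per condition. The median log2FC of cell cycle genes was -0.82 in Rab44-KO and 1.10 in WT. The log2FC in Rab44-KO minus that in WT was -10.0 for Clca1, -5.05 for Marco, -3.32 for the cystine transporter Slc7a11, -3.24 for Tff2, -2.89 for Ccr3, -2.53 for Top2a, -2.43 for Rrm2, -2.17 for the mitotic kinesin Kif11 and -2.15 for Fkbp11. All of these were lower under OVA-induced conditions in Rab44-KO and higher in WT. The difference was 2.65 for Ppbp, 2.63 for the fatty acid hydroxylase Cyp4a32, 2.56 for Tubb1 and 2.53 for Gm53455, which were higher in Rab44-KO and lower in WT.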

How the results depend on the processing

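Against 1218 higher and 730 lower genes, a minimum of 1 count gave 3926 and 2927, a minimum of 50 counts 478 and 284, an absolute log2FC above 2 gave 369 and 127, and counting intervals wholly beyond 2-fold 365 and 147. TPM left 481 lower genes. DESeq2 size factors, total counts, TMM on only the 2 libraries compared, immunoglobulin genes left out of TMM, a prior count of 2, thinning and removal of the length trend kept both counts within 1.5 times. Of 191 genes named by rule none changed direction, but some calls over 2-fold were lost. With TPM, Gbp3, Ifit3, Rrm2, Fosl1, Ier3 and Hba-a2 came within 2-fold, the last 3 also with the length trend removed and Hba-a2 with DESeq2 size factors and total counts, and with thinned counts Aldh1a2 did (0.99). Conversely, Il1b, Cr2, Bank1, Pax5, Gata2, Ncf4, Hsp90aa1 and Cyp4a32 came over 2-fold higher with TPM, 3 of them B cell genes, and Timp1, Ncf4 and Cyp4a32 with the trend removed, at values of 1.01 to 1.10. The values of 70 of these genes moved beyond their counting interval with TPM and of 59 with the length trend removed. Differences between genotypes depended more on the setting, since of 180 computed 103 moved with TPM, 76 with the trend removed and 19 with total counts. No paired analysis was possible because each group holds 1 library. Depth limits genes under about 100 counts, whose intervals span several-fold, and the spread between animals is unknown.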
